A study of Mus musculus with 9 samples.

Results

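The genes described here are 10 conserved targets of the transcriptional coactivators YAP and TAZ: Ankrd1, Axl, F3, Crim1, Nuak2, Myof, Nt5e, Gadd45a, Foxf2 and Rbms3. They were taken by symbol from the count files, which list 34590 genes, and all 10 were found. RNA was measured in E12.5 mouse telencephalons, the embryonic forebrain region from which cortex and basal ganglia arise. The 5 wild-type (WT) libraries were compared with 4 libraries from embryos lacking Lats1 and Lats2 through Nestin-Cre (double knockout, dKO), all on a background labelled mixed lineage. Nestin-Cre recombines in neural progenitors, while the dissected tissue also holds neurons, vessels, meninges and blood. The sources used here do not say whether the controls carried floxed alleles or Cre. The number of libraries equals the number of embryos named in the labels, and 1 library was read as 1 embryo.

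LATS1 and LATS2 are the last kinases of the Hippo pathway. They phosphorylate YAP and TAZ, which keeps them out of the nucleus, and without this brake YAP and TAZ bind TEAD transcription factors on DNA and raise transcription of their targets. The targets were defined largely in epithelial and cancer cells, and several of them are better known from muscle, vessels or connective tissue than from brain, so the comparison asks which of them respond when the brake is removed in the embryonic telencephalon.

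Sequences just before the gene starts are shown for the targets whose stretch held a letter match to the TEAD core (GGAATG, or CATTCC on the other strand) or to the AP-1 site (TGANTCA, which reads alike on both strands); AP-1 factors often share enhancers with TEAD. RefSeq (GRCm38.p6) gave such a stretch of 250 bases for 9 of the 10 targets, Rbms3 with a pair of gene starts. The TEAD core was found for 3 of them (Ankrd1, Axl and Crim1) and the AP-1 site for 1 (F3), while over all 32851 stretches of this length 12.6% held the TEAD core and 6.75% the AP-1 site. The 4 sequences run 5′ to 3′ on the strand of the gene, with matches in capitals. No motif overlapped another.
Ankrd1 (chr19:36119845-36120094, minus strand): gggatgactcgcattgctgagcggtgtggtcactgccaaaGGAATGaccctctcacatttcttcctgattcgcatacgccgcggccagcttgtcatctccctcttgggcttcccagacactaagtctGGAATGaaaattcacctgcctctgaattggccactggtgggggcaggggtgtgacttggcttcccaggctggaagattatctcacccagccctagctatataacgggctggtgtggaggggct
F3 (chr3:121723287-121723536, plus strand): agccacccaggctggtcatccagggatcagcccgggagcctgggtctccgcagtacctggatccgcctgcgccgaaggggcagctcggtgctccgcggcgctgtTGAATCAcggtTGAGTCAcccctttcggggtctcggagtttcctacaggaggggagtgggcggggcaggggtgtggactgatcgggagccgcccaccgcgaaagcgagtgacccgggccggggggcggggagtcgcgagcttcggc
Crim1 (chr17:78199998-78200247, plus strand): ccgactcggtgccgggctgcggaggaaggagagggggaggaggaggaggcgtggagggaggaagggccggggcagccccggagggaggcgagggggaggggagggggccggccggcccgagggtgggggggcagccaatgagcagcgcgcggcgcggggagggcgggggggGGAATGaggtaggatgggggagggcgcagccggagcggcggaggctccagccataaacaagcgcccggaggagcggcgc
Axl (chr7:25788734-25788983, minus strand): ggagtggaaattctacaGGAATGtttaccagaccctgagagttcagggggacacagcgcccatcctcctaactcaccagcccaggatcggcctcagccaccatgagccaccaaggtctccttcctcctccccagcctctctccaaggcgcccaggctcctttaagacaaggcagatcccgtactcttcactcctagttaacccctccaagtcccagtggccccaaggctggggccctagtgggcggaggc

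Ankrd1 held 2 TEAD cores, starting 210 and 123 bases before the gene start, Axl 1 at 233 bases and Crim1 1 at 79 bases. F3 held the 2 AP-1 matches, TGAATCA at 146 bases and TGAGTCA at 135 bases. These are letter matches in a short window, and distal enhancers were not searched. The stretches of Myof, Nt5e, Gadd45a, Foxf2 and Rbms3 held neither string.

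Levels are given as CPM, counts per 1e+06 gene counts after TMM scaling, which compares a gene with the typical gene of its library. Values per cell are counts per 1e+06 counts of the ERCC spike-ins, synthetic RNAs added per counted cell. Libraries held 12906561 to 45803152 gene counts and 198776 to 706808 spike-in counts. Gene counts per spike-in count were 1.36-fold higher in dKO (58.1 ± 6.10 in WT and 79.1 ± 5.90 in dKO, mean ± SD, n = 5 and 4; two-sided exact permutation p = 0.00794, which is the minimum over 126 assignments), and the median log2 fold change of all genes per cell was 0.43. WT 2, 3 and 4 stood apart by their reads in no gene, 39.3% to 41.3% against 32.0% to 35.6% in the other 6 libraries, so results are also given without them. Lats1 was at 125 to 136 CPM in the WT libraries and 58.8 to 61.3 CPM in the dKO libraries. Lats2, itself a YAP/TAZ target, was at 20.2 to 32.4 CPM in WT and 36.3 to 56.4 CPM in dKO. Which exons were deleted is unknown here, so the Lats2 count does not check the label.

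Relative to the library, 5 of the 10 targets rose in dKO (F3, Ankrd1, Nuak2, Gadd45a and Crim1) and 0 fell (edgeR, adjusted p under 0.05; 0 falls also at an unadjusted p under 0.05 and with DESeq2 and limma-voom). Myof, Nt5e, Axl, Rbms3 and Foxf2 did not pass. Over all 17182 genes tested, 13.7% rose and 12% fell by the same rule. The median relative log2 fold change of the 10 was 0.41, against -0.01 over all genes. Per cell 9 of the 10 rose, all but Foxf2, where 61.1% of all genes rose, and their median was 0.85 against 0.43. F3 and Ankrd1 were the 2 that rose at least 2-fold relative to the library, as did 1.66% of all genes. Ankrd1 passed the filter on low counts through its dKO libraries, so its part in these counts and medians does not count as support. Without WT 2, 3 and 4, the relative test left 2 of the 5 rises, F3 and Nuak2, and 0 falls (2.51% of all genes rose and 0.949% fell in that fit), with a median of 0.32, and 8 rose per cell (49.1% of all genes). In these bulk samples a change in the share of cells of a type and a change in RNA per cell cannot be told apart.

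**Figure D1:**
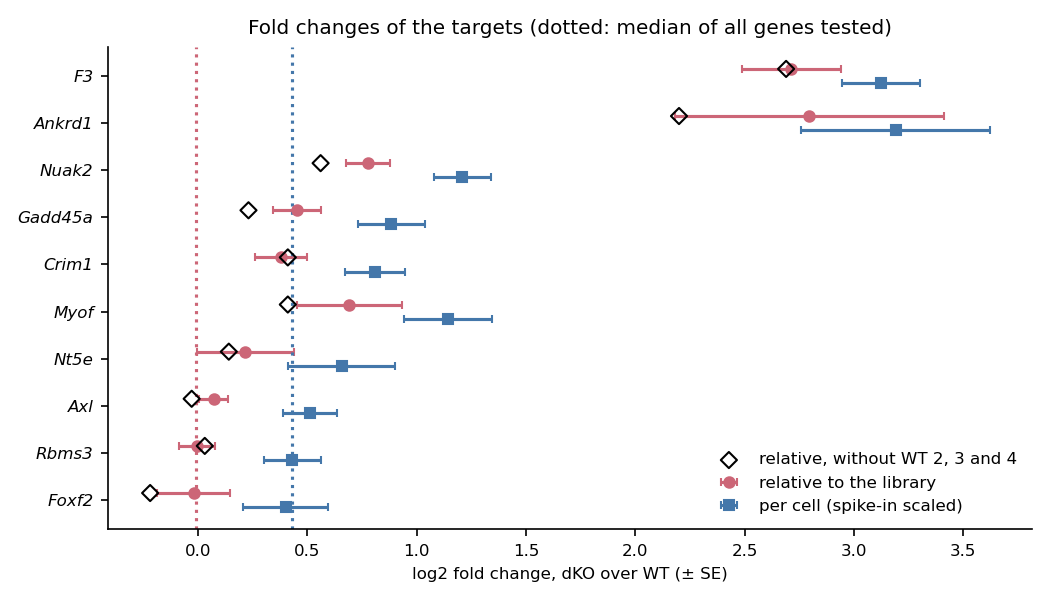
The log2 fold change of dKO over WT is plotted for each target, with 5 WT and 4 dKO libraries and bars of 1 SE, relative to the library (circles) and per cell (squares); open diamonds give the relative value without WT 2, 3 and 4. F3 and Ankrd1 lie above 2 in all 3 fits, while the relative values of Nt5e, Axl, Rbms3 and Foxf2 lie between -0.22 and 0.22 in both relative fits.

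F3 and Ankrd1 had the largest changes of the 10. F3 encodes tissue factor, the membrane protein that starts blood coagulation, and in brain it is known from astroglial cells. Its level was 3.98, 3.93, 4.91, 3.20 and 4.18 CPM in WT 1 to 5 and 34.5, 15.1, 23.2 and 33.5 CPM in dKO 1 to 4. Every dKO library stood above every WT library, with dKO 2 the lowest of its group. The rise was 6.56-fold relative to the library (log2 2.71, SE 0.23, adjusted p = 3.66e-05, edgeR) and 8.72-fold per cell (log2 3.12, SE 0.18), and F3 ranked 28 from the top among all genes tested by relative fold change. It was the target whose rise also passed a relative test for a change above 1.5-fold (adjusted p = 0.000206, edgeR), where the other 9 did not.

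Ankrd1 encodes a nuclear and sarcomeric ankyrin repeat protein of heart and muscle that is among the most used readouts of YAP/TAZ activity. It was nearly silent in WT, with 12, 5, 2, 17 and 12 counts in WT 1 to 5 (0.0655 to 0.917 CPM), and had 157, 25, 40 and 68 counts in dKO 1 to 4 (3.48, 0.903, 1.14 and 4.15 CPM). On the CPM scale dKO 2 lay just under WT 1, so the groups overlapped, while per spike-in count they did not (4.18 to 49.7 against 76.1 to 342 counts per 1e+06 spike-in counts). Ankrd1 rose by a relative log2 of 2.80 (SE 0.62, adjusted p = 0.00706, edgeR) and by 3.19 per cell (SE 0.43). Of the WT libraries 2 of 5, and of the dKO libraries 4 of 4, reached the 0.32 CPM of the filter on low counts, so Ankrd1 was tested because of its dKO counts; the other 9 targets reached it in every library. Without WT 2, 3 and 4 the relative call was lost (log2 2.20, adjusted p = 0.163) and the rise per cell was kept (log2 2.59, adjusted p = 9.53e-05).

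**Figure D2:**
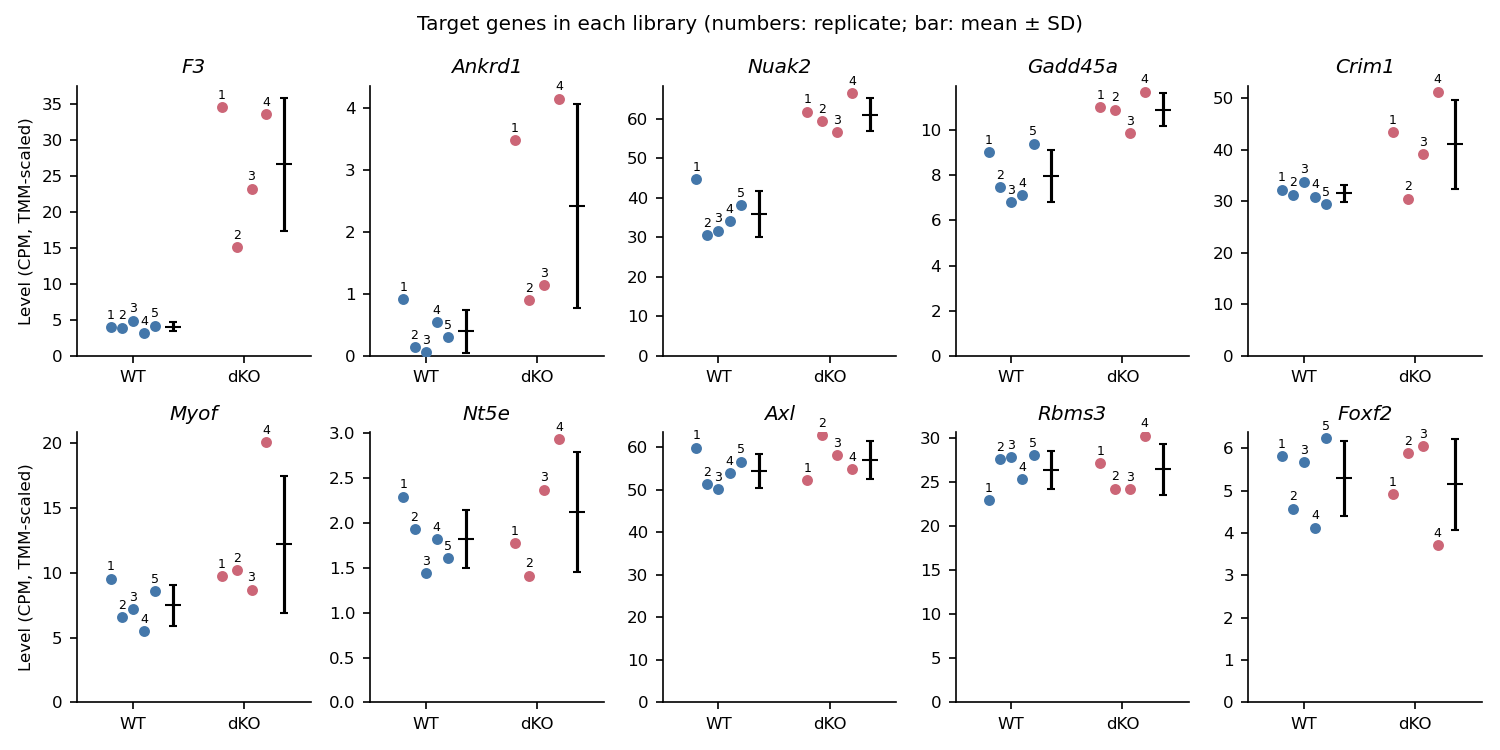
TMM-scaled CPM of each target is plotted on an axis from 0 for the 5 WT (blue) and 4 dKO (red) libraries, numbered by replicate, with the mean and SD as bars. The dKO points of F3, Nuak2 and Gadd45a lie above all WT points, and those of Axl, Rbms3 and Foxf2 overlap the WT points, with 1 dKO point of each outside the WT range.

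Nuak2, Gadd45a and Crim1 rose less. Nuak2 is an AMPK-related kinase that acts on the myosin phosphatase subunit encoded by Ppp1r12a. It was at 44.8, 30.5, 31.7, 34.1 and 38.1 CPM in WT 1 to 5 and at 61.8, 59.4, 56.7 and 66.5 CPM in dKO 1 to 4. The groups were well apart, with WT 1 the nearest to dKO. The rise was 1.71-fold relative to the library (log2 0.78, SE 0.10, adjusted p = 0.000447, edgeR) and 2.31-fold per cell, and without WT 2, 3 and 4 the relative log2 was 0.56 (adjusted p = 0.0187).

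Gadd45a encodes a small stress-response protein of cell cycle arrest and DNA repair, also induced by p53. Its levels were 9.02, 7.48, 6.81, 7.11 and 9.40 CPM in WT 1 to 5 and 11, 10.9, 9.87 and 11.7 CPM in dKO 1 to 4. The groups did not overlap, but WT 1 and WT 5 came close to dKO 3. The relative log2 fold change was 0.45 (SE 0.11, adjusted p = 0.0119, edgeR) and the per-cell one 0.88 (SE 0.16). Without WT 2, 3 and 4 the relative call was lost (log2 0.23, adjusted p = 0.305). In the GENCODE M21 annotation 337 exon bases of Gadd45a are shared with an antisense transcript, E230016M11Rik, and because the strand setting of the counting is not given its count is less certain.

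Crim1 encodes a transmembrane protein that binds bone morphogenetic proteins and limits their release. It was at 32.3, 31.3, 33.8, 30.9 and 29.4 CPM in WT 1 to 5 and at 43.4, 30.5, 39.2 and 51.3 CPM in dKO 1 to 4. The other dKO libraries stood above all WT libraries, while dKO 2 lay within them. Crim1 rose by a relative log2 of 0.38 (SE 0.12, adjusted p = 0.0358, edgeR) and by 0.81 per cell. The relative call was lost without any 1 of WT 2, WT 3, WT 4, WT 5, dKO 1 or dKO 4 (adjusted p 0.051 to 0.0934) and without WT 2, 3 and 4 together (log2 0.41, adjusted p = 0.227). It shares 123 exon bases with Fez2 on the opposite strand. Of the 10 targets, 3 (F3, Nuak2 and Gadd45a) had groups that did not overlap relative to the library, all higher in dKO, where 12.6% of all genes did. Per cell it was 8, where 48.4% of all genes did.

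Myof, which encodes the membrane repair protein myoferlin, turned on 1 library. It was at 9.56, 6.60, 7.21, 5.50 and 8.56 CPM in WT 1 to 5 and at 9.74, 10.2, 8.70 and 20.1 CPM in dKO 1 to 4. dKO 4 stood far above all other libraries, dKO 1 and dKO 2 just above WT, and dKO 3 lay within WT. The relative log2 fold change was 0.69 (SE 0.24, adjusted p = 0.0549, edgeR), and DESeq2 gave an adjusted p = 0.0138. Without dKO 4 it was 0.37 (adjusted p = 0.123). Per cell Myof rose by 1.14 (SE 0.20, adjusted p = 2.39e-05), and by 0.78 without dKO 4. The markers of surface ectoderm summed to 16.5 CPM in dKO 4 against 5.90 to 7.55 CPM in the other dKO libraries and 4.86 to 10.2 CPM in WT. Macrophage markers summed to 103 CPM in dKO 4 and to 70 to 82 CPM in the other 8 libraries. Of the surface ectoderm list, Epcam (6.78 CPM), Perp, Cdh1, Krt17, Grhl2 and Esrp1 (29 of its 46 counts) were highest of all 9 libraries in dKO 4, while Krt5, Krt14 and Krt15 had 0 counts there. The part of these markers in the result was not tested.

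Axl, Rbms3, Foxf2 and Nt5e did not differ from the typical gene by more than their error. Axl encodes a receptor tyrosine kinase of vessels, macrophages and radial glia, and it was the target with the highest level in WT. It was at 59.9, 51.3, 50.1, 53.9 and 56.6 CPM in WT 1 to 5 and at 52.3, 62.8, 58.1 and 54.8 CPM in dKO 1 to 4. The groups overlapped, with dKO 2 above all WT libraries. The relative log2 fold change was 0.07 (SE 0.07, adjusted p = 0.485, edgeR) with a 95% interval of -0.08 to 0.22, and it was -0.03 without WT 2, 3 and 4. Its per-cell log2 of 0.51 (adjusted p = 0.000699) is near the 0.43 of the median gene.

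Rbms3, an RNA-binding protein gene of mesenchyme, was at 23 to 28.1 CPM (median 27.6) in WT and at 27.2, 24.3, 24.2 and 30.3 CPM in dKO 1 to 4. Its relative log2 was 0.00 (SE 0.08, 95% interval -0.18 to 0.17) and its per-cell log2 0.43, equal to the median gene. Foxf2, a forkhead factor gene of mesenchyme and brain pericytes, was at 5.81, 4.58, 5.67, 4.13 and 6.25 CPM in WT 1 to 5 and at 4.92, 5.89, 6.05 and 3.72 CPM in dKO 1 to 4. Here dKO 4, the highest library for most of these targets, was the lowest of all 9. Its relative log2 was -0.02 (SE 0.17, 95% interval -0.39 to 0.34) and its per-cell log2 0.40 (adjusted p = 0.0704), which passed without any 1 of WT 3, WT 5, dKO 1 or dKO 4 (adjusted p 0.0247 to 0.0456).

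Nt5e encodes CD73, the surface enzyme that turns AMP into adenosine. It had 30 to 68 counts per WT library and 39 to 83 per dKO library, or 1.44 to 2.29 CPM (median 1.82) and 1.77, 1.41, 2.37 and 2.93 CPM in dKO 1 to 4. The lowest library of all was dKO 2 and the highest dKO 4. The relative log2 was 0.22 (SE 0.22, 95% interval -0.27 to 0.70), so a rise of up to 0.70 could not be told from none. The rise per cell (0.66, SE 0.24, adjusted p = 0.0195, edgeR) was lost without dKO 3 (0.0686), without dKO 4 (0.119) and without WT 2, 3 and 4 (0.148). The intervals of Axl and Rbms3, which had 8011 and 4017 counts over the WT libraries, leave less room, and their upper ends lie under the estimates for Crim1, Gadd45a and Nuak2. No test of the difference between these genes was made.

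Compared per kilobase of exon (union of GENCODE M21 exons), the WT levels ran from Axl (10.8 CPM per kilobase) and Nuak2 (9.15) through Crim1 (5.26), Gadd45a (4.52), Rbms3 (2.54), Foxf2 (2.24) and F3 (1.6) to Myof (0.594), Nt5e (0.212) and Ankrd1 (0.137). Axl and Nuak2 overlapped over the WT libraries (9.96 to 11.9 and 7.79 to 11.4), as did Crim1 and Gadd45a (4.91 to 5.65 and 3.86 to 5.33), Rbms3 and Foxf2, Foxf2 and F3, and Nt5e and Ankrd1. In dKO the order changed: Nuak2 (15.6) stood above Axl (11.3) without overlap (14.5 to 17 CPM per kilobase in Nuak2, where the highest Axl library lay below it), and F3 (10.5, range 5.96 to 13.7) moved from seventh place to the third. Ankrd1 remained among the lowest, at 0.838 CPM per kilobase (0.313 to 1.44). F3 and Ankrd1, with the largest fold changes, stood in the lower part of the WT order. Myof and Nt5e lay below F3 there, and neither passed the relative test. The most abundant target of WT, Axl, kept its level relative to the library. Whether the WT level bears on the fold change was not tested.

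The dKO libraries differed among themselves in how high the targets stood. F3 varied 2.29-fold and Ankrd1 4.60-fold from the lowest to the highest dKO library, whereas Nuak2 varied 1.17-fold, Gadd45a 1.18-fold and Axl 1.20-fold. For F3, Ankrd1 and Crim1, dKO 1 and dKO 4 were the highest pair and dKO 2 the lowest. dKO 4 was the highest dKO library for 7 of the 10 targets, where it was the highest for 31.3% of all genes tested. dKO 4 also had the fewest gene counts of its group (16566763) and a lower level than the other dKO libraries for Foxf2. Cyr61 and Ctgf, 2 other targets, followed the order of Ankrd1 and Crim1, with 127, 98.5, 107 and 166 CPM and 59.7, 34.6, 49.5 and 101 CPM in dKO 1 to 4. The order was not particular to targets. The neuronal genes Neurod2 and Neurod6 (135, 57.1, 92.2 and 196 CPM) and the erythroid gene Hbb-b1 had it too. Hbb-bh1, also erythroid, had the reverse (43.2, 153, 137 and 27.9 CPM). The other listed neuronal genes did not follow it. Neurod6 also set WT 2, 3 and 4 (208 to 265 CPM) apart from WT 1 and 5 (85.9 and 124 CPM). The part of this order in the spread of the targets was not tested.

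**Figure D3:**
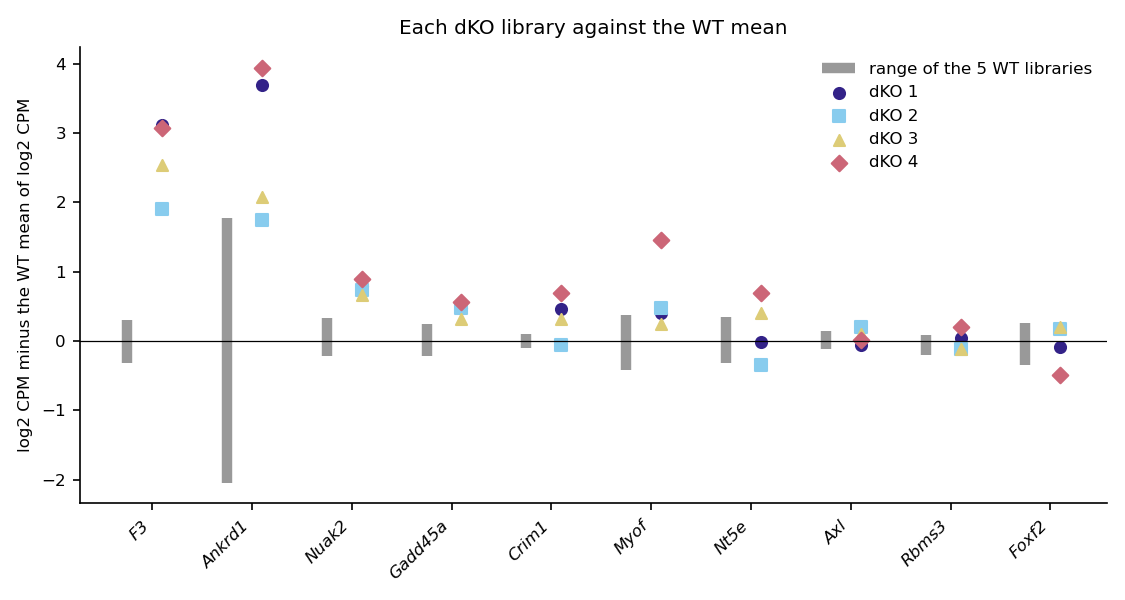
For each target, log2 CPM of the 4 dKO libraries is plotted after subtracting the WT mean of log2 CPM, beside the range of the 5 WT libraries (grey bar). dKO 4 is the highest dKO library for 7 targets and the lowest for Foxf2, and in Ankrd1 the WT range reaches above dKO 2.

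Close relatives of the targets did not always move with them. Of 15 listed paralogs, 10 passed the filter on low counts, of which 3 rose (Gadd45b, Rbms1 and Nuak1) and 1 fell (Gadd45g) relative to the library (edgeR; 13.7% and 12% of all genes), with a median of 0.05. The other 5, among them Foxf1 with 26 counts and Ankrd2 with 25 counts over all libraries, were too low to test. Gadd45b, a stress-response relative of Gadd45a, went from 2.91, 1.99, 1.64, 2.05 and 2.25 CPM in WT 1 to 5 to 12.7, 7.04, 7.67 and 19.2 CPM in dKO 1 to 4, a relative log2 of 2.44 (SE 0.29, adjusted p = 0.000275). WT thus held more Gadd45a than Gadd45b counts and dKO about as many of each. The log2 ratio of Gadd45a to Gadd45b counts went from 1.89 ± 0.18 (SD, n = 5) to 0.02 ± 0.61 (n = 4; exact permutation p = 0.00794, two-sided). Gadd45g, the third member of this growth arrest family, fell from 40.4 ± 2.64 to 32.8 ± 2.14 CPM (log2 -0.30, adjusted p = 0.00655), and that call was lost without WT 2, 3 and 4 (adjusted p = 0.148). Per cell Gadd45g had a log2 of 0.13 (adjusted p = 0.368), and of the 10 paralogs 6 rose and 0 fell, where 61.1% of all genes rose and 0.698% fell.

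The Rbms pair differed too. Rbms1 was at 26.8, 24.1, 23, 19.4 and 25.3 CPM in WT 1 to 5 and at 49.7, 40.7, 40.9 and 62.8 CPM in dKO 1 to 4, without overlap (log2 1.03, SE 0.13, adjusted p = 0.000404, edgeR), while Rbms3 and Rbms2 did not pass. The log2 ratio of Rbms3 to Rbms1 counts went from 0.16 ± 0.23 to -0.85 ± 0.14 (exact permutation p = 0.00794). Nuak1 and Nuak2 rose by similar amounts (log2 0.70, SE 0.17, and 0.78), with a ratio difference of 0.10 (exact permutation p = 0.706) that was -0.36 without WT 2, 3 and 4 (exact p = 0.267), where the Nuak1 call was lost too (adjusted p = 0.0627). Such ratios were tested for 10 pairs, and adjusted over them (Benjamini-Hochberg) both 0.00794 values became 0.0318. Also passing were the ratios of Gadd45a to Gadd45g (difference 0.76) and Myof to Dysf (0.71), each with an adjusted p = 0.0318. Ankrd1 to Ankrd23 had a difference of 2.91 (adjusted p = 0.0318). Ankrd1 was tested because of its dKO counts, so this ratio does not count as support. Myof to Otof (1.25, adjusted p = 0.0453) and Axl to Tyro3 (0.24, adjusted p = 0.0397) passed too. The groups overlapped for both Myof ratios and for Axl to Tyro3. dKO 4 had 329 Myof and 155 Dysf counts, against 439 and 384, 283 and 283, and 305 and 418 in dKO 1 to 3. Without WT 2, 3 and 4, Ankrd1 to Ankrd23 differed by 2.07 (exact permutation p = 0.133). Myof to Dysf differed by 0.58 and Myof to Otof by 0.76 there (exact permutation p = 0.333 for each). The Axl to Tyro3 difference was 0.15 without WT 2, 3 and 4 (exact permutation p = 0.267). In WT 1 and 5 against dKO the ratio differences were -1.83 for Gadd45a to Gadd45b and -0.82 for Rbms3 to Rbms1, where no exact p under 0.0667 is possible.

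**Figure D4:**
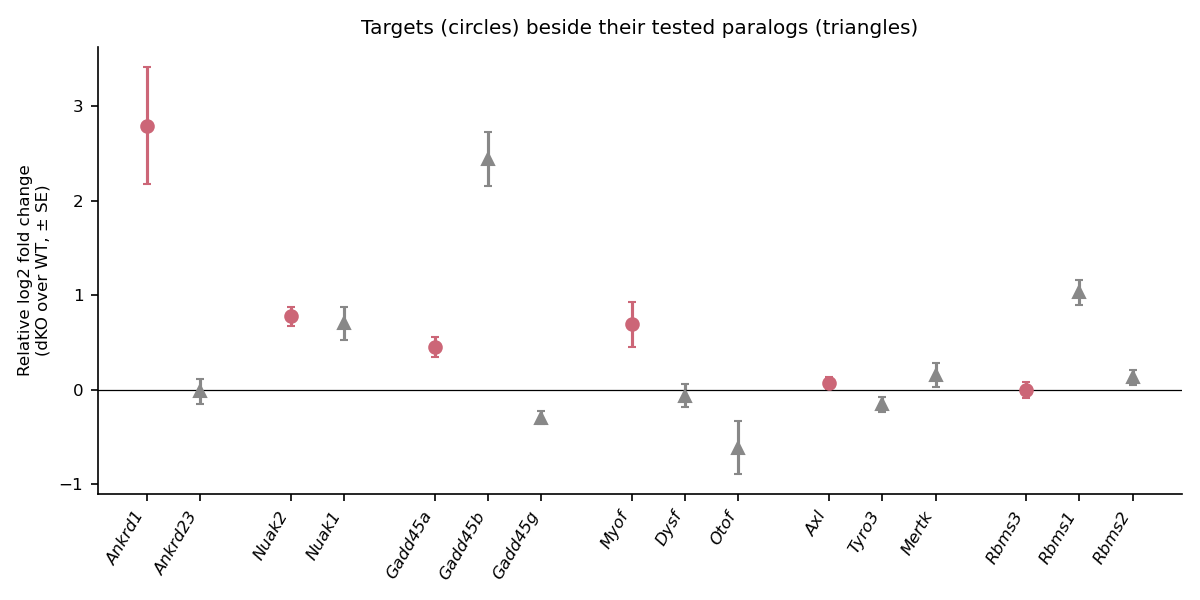
The relative log2 fold change (dKO over WT, bars of 1 SE) is plotted for targets (red circles) beside their tested paralogs (grey triangles). Gadd45b stands above Gadd45a and Rbms1 above Rbms3, whereas Ankrd1 stands above Ankrd23 and Nuak1 lies next to Nuak2.

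Ligands, substrates and neighbours in the pathways of the targets were listed as partners. Of 23, 18 were tested, and 5 rose and 2 fell relative to the library (edgeR; 13.7% and 12% of all genes), with a median of 0.07. Gas6, the ligand of Axl, was at 12.3, 13.6, 14.8, 13.8 and 14.1 CPM in WT 1 to 5 and at 23.3, 18.9, 21.8 and 37.8 CPM in dKO 1 to 4 (log2 0.87, SE 0.17, adjusted p = 0.00325). All dKO libraries were above WT, although the receptor gene Axl was not higher, and the related receptor genes Tyro3 (-0.16) and Mertk (0.15) did not pass. Bmp4, a ligand that Crim1 can bind, rose by 1.09 (SE 0.21), the cell cycle inhibitor gene Cdkn1a by 0.64, the thrombin receptor gene F2r by 0.22 and Ppp1r12a by 0.12. Entpd1, which encodes CD39 and makes the AMP that CD73 uses, fell from 17.3 ± 0.812 to 12.4 ± 2.17 CPM (log2 -0.47, SE 0.10, adjusted p = 0.00672), and the adenosine receptor gene Adora1 fell by 0.64. Per cell 13 of the 18 rose and 0 fell, where 61.1% of all genes rose and 0.698% fell. Neither relative fall held there (Entpd1 -0.05, adjusted p = 0.776, and Adora1 -0.20, adjusted p = 0.408). None of these 7 calls was kept without WT 2, 3 and 4 (edgeR), where Bmp4 had a log2 of 0.76 (adjusted p = 0.0684), Gas6 0.92 (adjusted p = 0.0837) and Entpd1 -0.53 (adjusted p = 0.0998).

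The other 12 genes of a published YAP/TAZ signature of 22 genes, from which the 10 come, gave 9 rises and 0 falls relative to the library (edgeR). Over all genes 13.7% rose and 12% fell. DESeq2 and limma-voom also gave 0 falls, and 1 gene, Fjx1, fell at an unadjusted p under 0.05. The median of the 12 was 0.69, against -0.01 over all genes. Without WT 2, 3 and 4, 6 of them rose, where 2.51% of all genes did. The 9 include Lats2 (log2 0.69), itself a targeted gene whose deleted exons are unknown here. Its call was lost without WT 2, 3 and 4 (adjusted p = 0.209, edgeR). Ctgf (log2 3.32) and Cyr61 (2.65), secreted matricellular proteins, and the phosphatase gene Ptpn14 (2.26) lay near F3 and Ankrd1. The angiomotin family gene Amotl2, which holds YAP in the cytoplasm, rose by 1.27, and the growth factor gene Tgfb2 by 1.30. Fjx1 (-0.11), Dock5 (0.25) and Asap1 (0.08) did not pass. No test compared the 12 with the 10. The effectors themselves were higher: Wwtr1, which encodes TAZ, rose by 0.64, Yap1 by 0.28, Tead4 by 1.86, Tead3 by 1.01 and Tead1 by 0.50, while Tead2 (0.10) did not pass. Yap1 had a log2 of 0.12 without WT 2, 3 and 4 (adjusted p = 0.407).

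**Figure D5:**
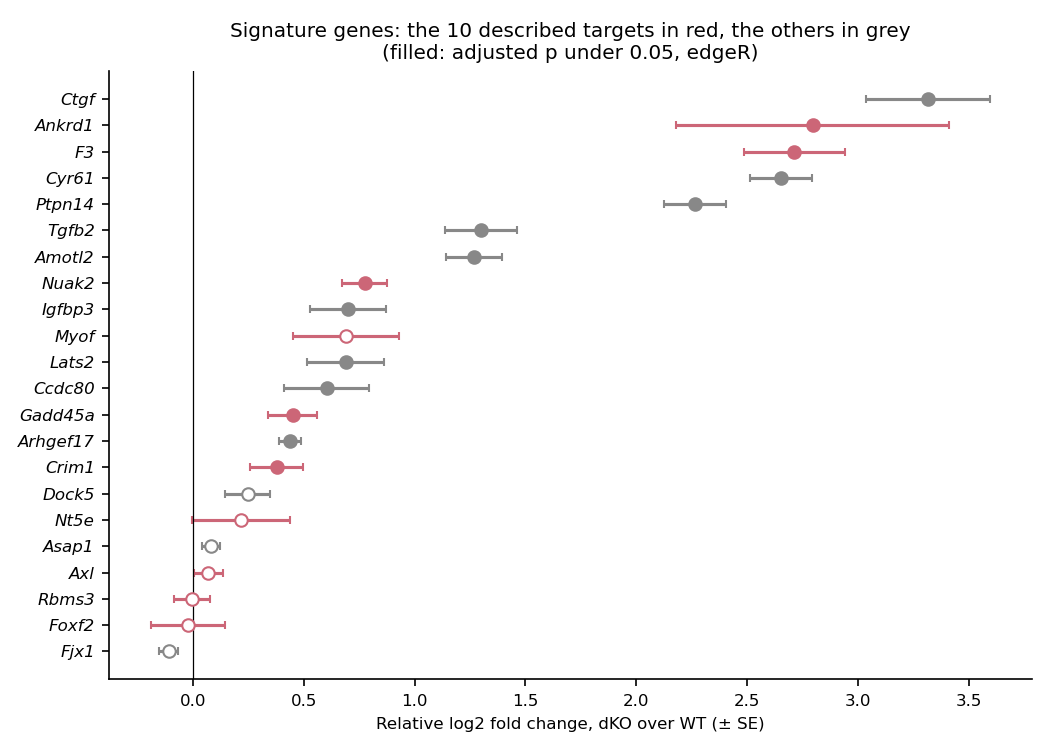
Relative log2 fold changes (dKO over WT, bars of 1 SE) of the 22 signature genes are plotted in order, with the 10 targets in red and filled points for an adjusted p under 0.05. F3 and Ankrd1 lie in the top group with Ctgf, Cyr61 and Ptpn14, and Axl, Rbms3 and Foxf2 lie near 0 with Asap1 and Fjx1.

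The genes whose profile over the 9 libraries was closest to each rising target were sought among 12637 genes with a mean of at least 1 CPM, by the root mean square difference of centred log2 CPM. For F3 they were Cyr61 (0.278) and the AP-1 family member gene Atf3 (0.284), which was at 1.04 CPM in WT and 8.11 CPM in dKO. For Ankrd1 they were the TEAD cofactor gene Vgll3 (0.785) and the RNA-binding gene Lin28a (0.896), both less close than those of the other targets. For Nuak2 they were Mtap (0.0673) and the mitochondrial folate enzyme gene Mthfd2 (0.0862), for Gadd45a the TGF-beta mediator gene Smad3 (0.0634) and Nr2f6 (0.0664), and for Crim1 Kifc3 (0.0776) and Man1a (0.0784). The difference between the groups makes up much of these profiles.

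Several targets are known from cells other than progenitors, so markers of those cells were examined. Of 9 tested mural cell markers, the pericyte lineage that expresses Foxf2, 0 passed relative to the library (2, Rgs5 and Anpep, at an unadjusted p under 0.05), and the 10 listed markers summed to 265 to 298 CPM in WT and 239 to 292 CPM in dKO. The 10 meningeal markers had 0 calls (0 also unadjusted; sums of 816 to 1030 and 744 to 1080 CPM), and of 10 endothelial markers Flt1 rose (0.32, adjusted p = 0.0452, edgeR; sums of 249 to 325 and 247 to 325 CPM), where the median was -0.08. The Flt1 call was lost in 7 of 9 fits with 1 library left out and without WT 2, 3 and 4 (0.14, adjusted p = 0.579). Of 10 macrophage markers P2ry12 fell (-0.86; -0.40 and adjusted p = 0.252 without WT 2, 3 and 4), against the median of 0.19 of its list. Cx3cr1, C1qa, Ptprc and C1qb were higher at an unadjusted p of 0.0158 to 0.0308 but did not pass, and the list had sums of 70 to 82 CPM in WT and 80 to 103 CPM in dKO. Of 10 choroid plexus markers and of 3 tested surface ectoderm markers 0 passed (1 each, Kl and Perp, unadjusted), and 3 of 10 erythroid markers fell. The neural lists moved more: of 10 neuronal genes 7 fell relative to the library, among them Dcx (-0.48), and of 12 radial glia genes 3 rose (Vim, Hes1 and Nes) and 4 fell. Over all genes 13.7% rose and 12% fell. The radial glia sum was 2420 to 2820 CPM in WT and 3690 to 4190 CPM in dKO. Vim (mean 709 CPM in WT and 1690 CPM in dKO) and Nes (784 and 1180 CPM) carried this difference. The median relative log2 fold change of the radial glia list was -0.07, so the sum does not measure the number of radial glia. Without WT 2, 3 and 4, 1 neuronal gene fell (Dcx, -0.36), and 3 radial glia genes rose and 0 fell, with Hes5 at -1.26 (adjusted p = 0.0658, edgeR) and Fabp7 at -0.26 (adjusted p = 0.0679). Per cell 1 neuronal gene rose and 1 fell, and 8 radial glia genes rose and 1 fell, where 61.1% of all genes rose and 0.698% fell. No listed marker was at 0 in all libraries. The part of these shifts in the changes of the targets was not tested.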

How the data were processed

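Total RNA of 9 embryonic telencephalons was sequenced. Per the labels' protocols, 1e+06 counted cells per sample received an ERCC mix before extraction, and libraries were made from 350 ng RNA with a stranded kit and read as 100 bp pairs. The deposited files hold raw counts per gene symbol, made by the authors with STAR and HTSeq on mm9, per the submitters' processing notes; versions, annotation and strand setting: not given in the sources used here. The 92 spike-ins and 5 counter rows were kept out of gene totals; reads in no gene were 32.0% to 41.3%.

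With R 4.3.3 and edgeR 4.0.16, 17182 genes passed filterByExpr and were fitted by quasi-likelihood with TMM factors (relative) or with spike-in totals as library sizes (per cell), Benjamini-Hochberg adjusted over all genes, threshold 0.05. The fits were tested on simulated data. The simulated spread was estimated after TMM scaling for both fits, so spike-in noise between libraries was not part of it. SE is the fold change over the root of F. DESeq2 1.42.0, limma 3.58.1 voom, other filters and scalings, a 1.5-fold test, left-out libraries and a replicate block were alternatives. Same-numbered WT and dKO libraries did not deviate together. Members, lists and tests were chosen with earlier results of these data known. Named were Lats1 and Lats2, all 10 targets, up to 4 genes with the smallest adjusted p of each list, genes behind small counts, and 2 most alike genes per rising target; paralog ratios and other names were chosen after values were seen. 2 listed genes carry older symbols in the files. Sequences are RefSeq's (GRCm38.p6); lengths are GENCODE M21's, a build other than mm9. Litters are not given, so p-values rest on the spread between embryos. Spike-in values assume equal cell numbers and spike-in doses.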

Additional observations from a re-analysis of the deposited data

Results flagged for a closer look

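Myof in dKO 4, at 20.1 CPM, lay far from the other 3 dKO libraries (8.70 to 10.2 CPM): its gap to the nearest of them was 0.866 of the whole range of the group, above Dixon's 95% critical value for 4 samples. Among 42 groups of values examined this was the 1 marked, and chance marks about 1 in 20.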

How the results depend on the processing

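The counts of rising targets kept within 1.5 times of 5 (relative) and 9 (per cell), with 0 falls, under DESeq2, voom, other filters and scalings, and each left-out library (4 to 6 and 8 to 10), except in 2 settings. Testing for a change above 1.5-fold left 1 and 4, and 5 of the 9 other signature genes. The share of all genes passing that test was not counted. Leaving out WT 2, 3 and 4 left 2 relative rises; gene counts per spike-in count differed by a log2 of 0.45 there too (exact permutation p = 0.0667, the smallest possible with 2 WT and 4 dKO libraries). Of the targets and their paralog ratios, 3 changed sign, none past the threshold in either fit, besides Rbms3, whose relative value of 0.00 fell on either side of 0: Foxf2 at 0.01 with voom, 0.03 with the replicate block and -0.10 to 0.09 with 1 library left out, Axl at -0.03 without WT 2, 3 and 4, and the Nuak2 to Nuak1 ratio at -0.36 without WT 2, 3 and 4 and at -0.04 to 0.28 with 1 library left out. The causes were not tested.

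The replicate block gave 4 relative rises (Crim1 lost, adjusted p = 0.0959) and 10 per cell (Foxf2 gained, adjusted p = 0.028). The share of all genes rising with the block was not counted. Deviations of same-numbered WT and dKO libraries correlated across genes at -0.17, -0.14, -0.33 and 0.16, so the numbers were not taken as pairs, and no dKO library correlated best with its own number. Ankrd1 and Nt5e had the fewest counts of the 10 (48 and 262 over the WT libraries), and the part of depth in their errors was not tested; a mean count of at least 50 removed Ankrd1.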
